A study of Mus musculus with 9 samples.

Results

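Retinal ganglion cell marker genes were followed across all 9 libraries of the series. The set holds 10 genes, chosen by name: Rbpms, Pou4f1, Pou4f2, Pou4f3, Sncg, Nefl, Nefm, Nefh, Thy1 and Slc17a6. They are 10 of the 22337 genes in the deposited table, and the rule names the genes without a threshold on any measured value. RNA was taken from whole retina at P28 in 3 groups of 3 libraries: untreated C57BL/6J mice (WT), rd10 mice given NS, and rd10 mice given MSC-EVs. In rd10 mice the Pde6b gene, whose product is the beta subunit of the phosphodiesterase of rods, is mutated and the photoreceptors are lost. NS is normal saline. MSC-EVs are extracellular vesicles released by human umbilical cord mesenchymal stem cells, so human vesicles were given to mice. The rd10 mice of both groups were littermates, and 1 μl was injected into both eyes at P14 and at P21. One label field names the vitreous as the site of injection and another calls the injection intravenous. The WT mice came from another supplier and were not injected, so genotype, source and injection cannot be told apart in the comparisons with WT.

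Retinal ganglion cells are the output neurons of the retina. They collect signals from bipolar and amacrine cells, and their axons form the optic nerve. Each is a glutamatergic neuron with a long axon packed with neurofilaments, and its identity is set by POU-domain transcription factors of the Brn3 group. In rd10 mice the disease starts in the rods. Ganglion cells do not express the mutated gene and are known to outlive the photoreceptors.

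The libraries held between 19491721 and 62532357 estimated counts, and MSC-EVs replicate 3 was the deepest. The labels do not say that the libraries came from separate animals, so p-values measure the spread between these samples. Pde6b was lower in NS-treated rd10 than in WT by 2.23 ± 0.10 (SE, n = 3 per group) on the log2 scale (edgeR adjusted p = 3.0e-08), and all 12 genes of the rod list were lower. The summed level of the rod list was 81324 to 87100 CPM (counts scaled to a fixed library total with TMM factors) in WT and 16739 to 24226 CPM in the 6 rd10 libraries. CPM are relative values within a library, so other genes take a larger share where rod transcripts are lost. In addition, 4 Y-linked genes (Ddx3y, Eif2s3y, Kdm5d and Uty) summed to 183 and 189 CPM in MSC-EVs replicates 1 and 2. In the other 7 libraries they summed to 0.237 to 0.501 CPM. The labels give no sex. The main values with MSC-EVs are therefore also given with these 2 libraries left out, which leaves MSC-EVs replicate 3 alone, assumed to vary like the other group. In bulk retina, a change in the number of ganglion cells and a change in RNA per cell cannot be told apart.

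Positions of the members are those of the GENCODE M21 annotation on the GRCm38 mouse genome; the build used for counting is not given in the sources used here. Pou4f1, Sncg, Nefl and Nefm are on chromosome 14, at 104461676 to 104467999, 34370274 to 34374789, 68083863 to 68089095 and 68082590 to 68124846. Rbpms and Pou4f2 are on chromosome 8, at 33782643 to 33929863 and 78433010 to 78436645. Nefh is on chromosome 11 at 4938754 to 4948064, Thy1 on chromosome 9 at 44043384 to 44048579, and Slc17a6 on chromosome 7 at 51622006 to 51671119. Nefl lies on the plus strand inside the span of Nefm, which is on the minus strand, and their exons share 1108 bases. These are 32.8% of the exonic bases of Nefl and 19.2% of those of Nefm. The library protocol names no strand-specific step, so reads from this stretch could be assigned to either gene, and their separate values are uncertain. Pou4f1 and Pou4f2 share 0.498% and 0.729% of their 50-base windows with each other.

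Upstream sequences were available for 4 members (RefSeq, GRCm38.p6). The sequences are given as a description, and Slc17a6 has 2 start entries whose sequences differ. Any link between these sequences and the levels of the members was not tested. The stretch of 150 bases before each RefSeq start is printed 5′ to 3′ on the gene's own strand. By the GENCODE positions above, the second Slc17a6 stretch lies inside its gene and the Sncg stretch overlaps its gene. Capitals mark matches on either strand to ATTAAT (a core bound by POU4F proteins), GGGCGG (the GC box) or TATAA, and adjacent GC boxes can overlap. Pou4f1 had no match in this stretch and is not shown.
Slc17a6, entry 1 (chr7:51621680-51621829): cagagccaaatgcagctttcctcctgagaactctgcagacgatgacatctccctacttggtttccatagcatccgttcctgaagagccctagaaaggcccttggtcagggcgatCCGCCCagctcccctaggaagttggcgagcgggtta
Slc17a6, entry 2 (chr7:51624487-51624636): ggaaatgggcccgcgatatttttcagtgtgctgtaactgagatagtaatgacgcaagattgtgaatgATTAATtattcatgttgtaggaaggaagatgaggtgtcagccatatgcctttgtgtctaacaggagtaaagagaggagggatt
Pou4f2 (chr8:78436648-78436797): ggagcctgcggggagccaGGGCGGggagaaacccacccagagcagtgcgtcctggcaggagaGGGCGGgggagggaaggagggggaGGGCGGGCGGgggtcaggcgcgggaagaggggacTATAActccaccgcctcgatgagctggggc
Sncg (chr14:34374670-34374819): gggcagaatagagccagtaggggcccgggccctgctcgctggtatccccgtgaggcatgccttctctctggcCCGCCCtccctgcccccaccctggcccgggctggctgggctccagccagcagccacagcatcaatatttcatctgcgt
The second Slc17a6 entry was the only one of the 5 member entries searched with ATTAAT, starting 83 bases before the start. Among all 32851 promoters of the table, 4.39% held it within 250 bases. Pou4f2 had 5 GC boxes in its 250-base window and a TATAA 30 bases before the start. GC boxes were found in 32.7% and TATAA in 22.8% of all promoters. A match is a description of the letters and does not show binding.

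Per transcript length, the members spanned a wide range of levels. The deposited FPKM scales fragments to transcript length and library depth. In WT, the mean FPKM was 181 ± 28.5 for Nefl, 108 ± 8.67 for Thy1 and 75.7 ± 8.53 for Sncg (SD, n = 3). Nefm (44.4 ± 5.79) and Nefh (43.9 ± 4.21) followed, and their libraries overlapped. Rbpms (20.96 ± 2.92) and Slc17a6 (17.2 ± 3.86) overlapped as well. Last came the transcription factors Pou4f1 (5.73 ± 0.736) and Pou4f2 (4.70 ± 0.982), which overlapped, and Pou4f3 (2.81 ± 0.462). The order of means was the same in both rd10 groups.

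**Figure D1:**
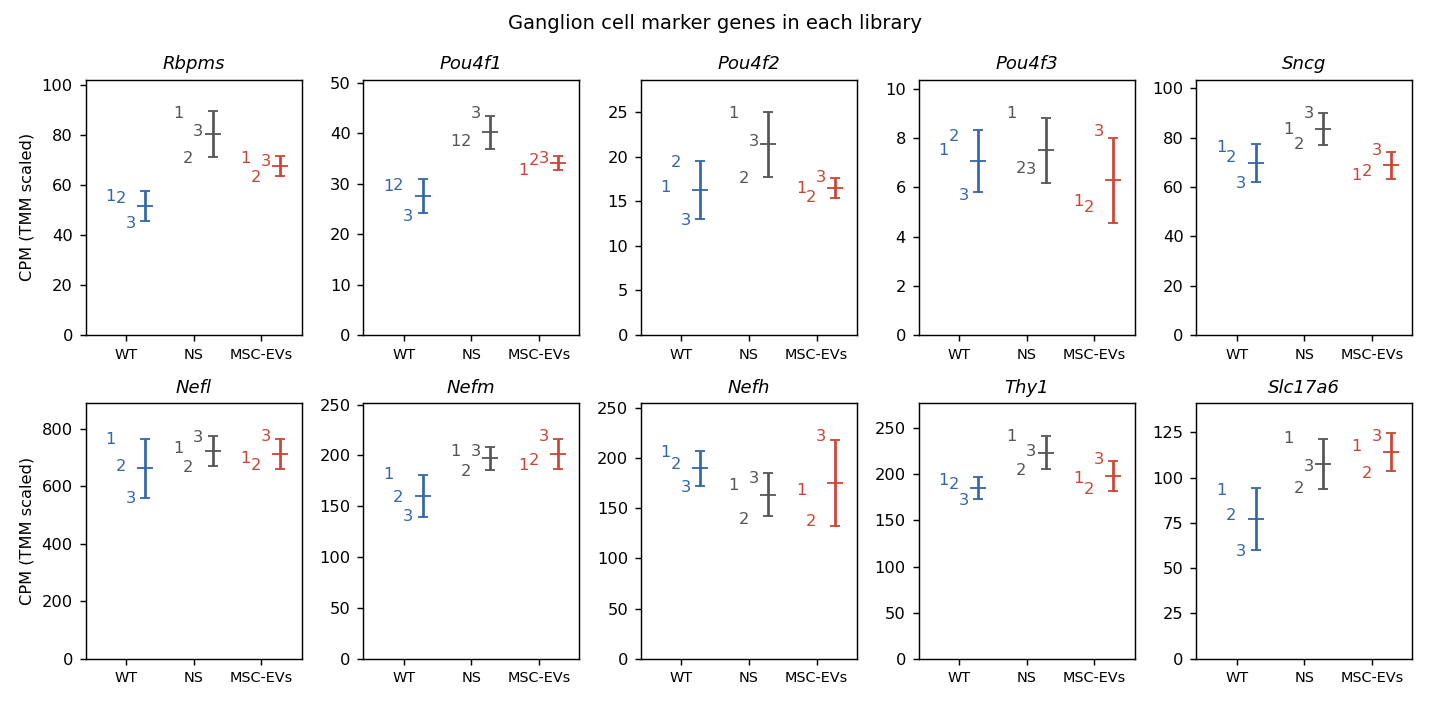
CPM (y axis, scaled with TMM factors over all 9 libraries and starting at 0) of each of the 10 genes in retina of the 3 groups. Digits are the replicate numbers and bars the mean ± SD of 3 libraries. Rbpms and Pou4f1 lie higher in all 6 rd10 libraries than in the 3 WT libraries.

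The first comparison, NS-treated rd10 against WT, describes ganglion cell transcripts in a retina that is losing its photoreceptors. Of the 10 genes, 5 rose in NS-treated rd10: Rbpms, Pou4f1, Thy1, Nefm and Sncg, and 0 fell by edgeR with all libraries. DESeq2 called 7 members, 6 higher and Nefh lower (−0.22, adjusted p = 0.035), and of all genes 4276 higher and 4132 lower. In the same comparison edgeR called 61.3% of the 14644 genes tested at an adjusted p under 0.05, 31.2% higher and 30.1% lower. Thus 5 of 10 members called by edgeR is not above the background. The largest rise was 1.56-fold, and no member reached a doubling, where 12.7% of all genes were called with at least a 2-fold change. The median log2 fold change of the members was 0.29, against 0.01 for all genes tested. For 6 members no NS-treated library lay within the WT range or the reverse, which was so for 66.9% of all genes.

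Rbpms encodes an RNA-binding protein that labels ganglion cells of all types in the retina. Its level was 55.7, 54.6 and 44.8 CPM in WT and 88.9, 70.9 and 81.7 CPM in NS-treated rd10. It was 70.7, 63.1 and 69.6 CPM in MSC-EVs-treated rd10. The 3 groups did not overlap, with WT lowest and NS-treated rd10 highest, although the gap between the lowest NS-treated and the highest MSC-EVs-treated library was small. Rbpms rose by 0.64 ± 0.10 (SE) on the log2 scale from WT to NS-treated rd10 (edgeR adjusted p = 0.00034), a 1.56-fold change with a 95% interval of 1.33 to 1.82. It was called under each of the 17 alternatives tried.

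Pou4f1 (Brn3a), a transcription factor needed for the identity of many ganglion cells, gave 29.3, 29.6 and 23.6 CPM in WT. The NS-treated libraries gave 38.3, 38.3 and 44.0 CPM, and the MSC-EVs-treated libraries 32.6, 34.6 and 35.1 CPM. Here too the 3 groups were separate and in the same order as for Rbpms. The rise in NS-treated rd10 was 0.54 ± 0.10 (SE) on the log2 scale (edgeR adjusted p = 0.00043), and it was also called under each of the 17 alternatives.

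Pou4f2 (Brn3b), which drives ganglion cell differentiation and axon growth, was at 16.6, 19.4 and 12.8 CPM in WT and at 24.9, 17.5 and 21.7 CPM in NS-treated rd10. The MSC-EVs-treated libraries were at 16.5, 15.4 and 17.6 CPM, close to the middle of the WT values. The WT and NS-treated libraries overlapped. The difference of 0.39 ± 0.16 (SE) missed the threshold (edgeR adjusted p = 0.062). Of the 17 alternatives tried, 7 called Pou4f2 higher, and its estimates ran from 0.10 to 0.57.

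Pou4f3 (Brn3c), which marks a subset of ganglion cells and is better known from hair cells of the inner ear, is on chromosome 18 at 42394539 to 42397249. It was the least abundant member, at 7.49, 8.06 and 5.66 CPM in WT and 9.03, 6.76 and 6.73 CPM in NS-treated rd10. In MSC-EVs-treated rd10 it was at 5.44, 5.17 and 8.29 CPM. All 3 groups overlapped. The difference between NS-treated rd10 and WT was 0.09, with a 95% interval of −0.28 to 0.46 on the log2 scale, so a change of up to 1.38-fold was within the error.

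Sncg encodes gamma-synuclein, a small presynaptic and axonal protein that is concentrated in ganglion cells. WT gave 76.1, 71.8 and 61.2 CPM, and NS-treated rd10 gave 83.2, 77.3 and 90.0 CPM. MSC-EVs-treated rd10 gave 64.8, 66.4 and 74.9 CPM, all below the lowest NS-treated library. Against WT, Sncg rose by 0.26 ± 0.08 (SE) in NS-treated rd10 (edgeR adjusted p = 0.019). Without WT replicate 3 or without NS replicate 3 the call was lost (edgeR adjusted p = 0.080 and 0.077).

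Thy1 encodes a surface glycoprotein of the outer membrane leaflet that is used to purify ganglion cells. Its level was 193, 189 and 171 CPM in WT, 241, 205 and 225 CPM in NS-treated rd10, and 195, 184 and 216 CPM in MSC-EVs-treated rd10. NS-treated rd10 lay above WT in all libraries. The difference was 0.27 ± 0.07 (SE) on the log2 scale (edgeR adjusted p = 0.0056).

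The neurofilament genes encode the light (Nefl), medium (Nefm) and heavy (Nefh) subunits of the intermediate filaments that set axon calibre. Nefl was at 763, 669 and 557 CPM in WT, 732, 666 and 768 CPM in NS-treated rd10 and 695, 671 and 773 CPM in MSC-EVs-treated rd10. The Nefl groups overlapped, and the difference between NS-treated rd10 and WT was 0.12 ± 0.10 (SE), with an edgeR adjusted p of 0.348. Nefm was at 181, 159 and 140 CPM in WT, 204, 184 and 203 CPM in NS-treated rd10 and 190, 195 and 218 CPM in MSC-EVs-treated rd10. Every rd10 library lay above every WT library for Nefm, and the rise in NS-treated rd10 was 0.30 ± 0.09 (SE), with an edgeR adjusted p of 0.012. Nefh was at 205, 193 and 170 CPM in WT, 172, 139 and 179 CPM in NS-treated rd10 and 168, 137 and 221 CPM in MSC-EVs-treated rd10. It was the only member whose estimate was below 0 in NS-treated rd10 against WT (−0.22 ± 0.10 SE, edgeR adjusted p = 0.081), and without WT replicate 3 it was called lower (−0.29, edgeR adjusted p = 0.036). With the counts of Nefl and Nefm summed, which does not depend on how reads of the shared exons were assigned, the difference was 0.16 ± 0.10 (SE) and was not called (edgeR adjusted p = 0.206). Nefl is the larger term of this sum, and the part of shared reads in the call of Nefm was not tested.

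Slc17a6 encodes VGLUT2, the transporter that loads glutamate into synaptic vesicles of ganglion cell axons. It was at 93.1, 79.2 and 59.0 CPM in WT and 122, 94.0 and 106 CPM in NS-treated rd10. In MSC-EVs-treated rd10 it was at 117, 102 and 122 CPM. All 6 rd10 libraries lay above the WT libraries, with WT replicate 3 below the other two. The difference of 0.48 ± 0.18 (SE) between NS-treated rd10 and WT was not called (edgeR adjusted p = 0.067). It was called without WT replicate 1 (0.64, edgeR adjusted p = 0.0091) and without WT replicate 3 (0.32, edgeR adjusted p = 0.038).

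The direction of several members depended on the scale. When libraries were scaled to the amacrine list instead of to all genes, the median of all genes in NS-treated rd10 against WT moved from 0.01 to −0.28 and the median of the members was −0.01. On that scale Rbpms and Pou4f1 were still called higher, Nefh was called lower (−0.51, edgeR adjusted p = 4.7e-05), and Sncg (−0.037), Thy1 (−0.020) and Nefm (0.01) were not called. Of the calls over all genes, 23.5% were higher on the amacrine scale, 71.8% were higher with limma on log2(FPKM + 1), and 50.8% with edgeR. With limma on log2(FPKM + 1) 8 members were called, all higher, where the median of all genes stood at 0.14. Of the 14644 genes tested, 6051 were higher and 2377 lower with limma, and 2285 higher and 7420 lower on the amacrine scale. Thus Rbpms and Pou4f1 were higher in NS-treated rd10 on each of the scales tried, whereas Sncg and Thy1 turned to slightly negative values on the amacrine scale. Nefl (−0.17) and Pou4f3 (−0.20), called on neither scale, were negative there too.

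**Figure D2:**
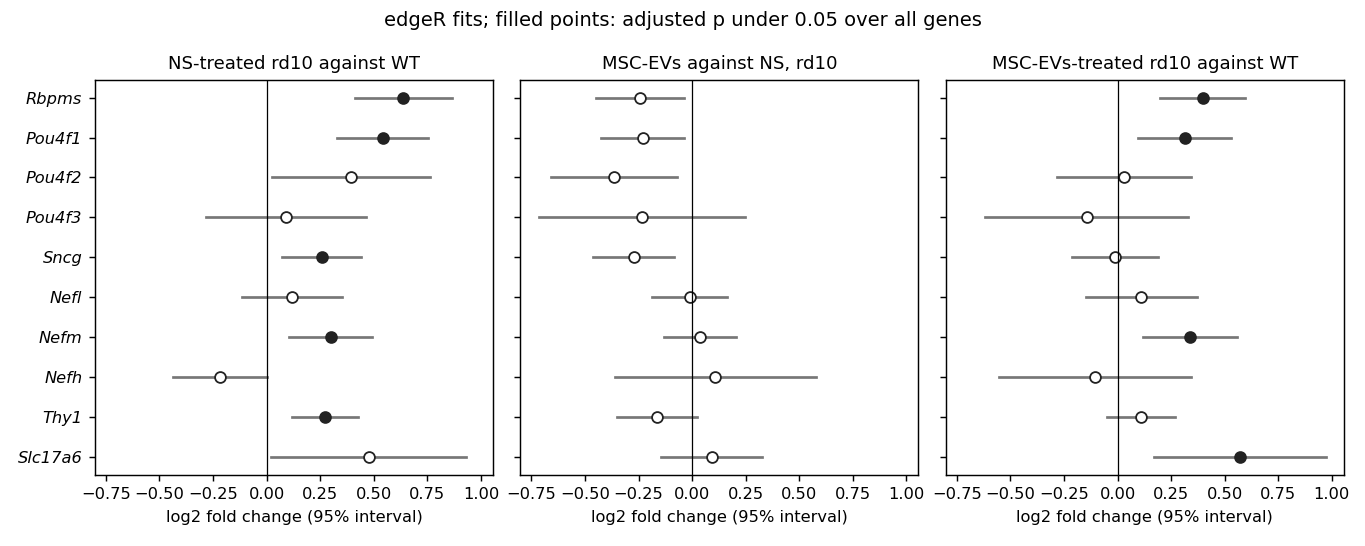
Log2 fold change (x axis) with its 95% interval for each gene in the 3 comparisons, from edgeR fits over all genes. Filled points passed an adjusted p under 0.05: 5 genes in NS-treated rd10 against WT, 0 in MSC-EVs against NS, and 4 in MSC-EVs-treated rd10 against WT.

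The second comparison, MSC-EVs-treated against NS-treated rd10, describes the treatment within littermates. None of the 10 genes was called by edgeR. By the same test 4 had an unadjusted p under 0.05, as did 2980 of the 14765 genes tested. Called genes were rare throughout, at 1.16% of the 14765 genes tested (0.914% higher, 0.251% lower, and 0.061% with at least a 2-fold change). DESeq2 and limma on FPKM likewise called 0 members at an adjusted p under 0.05, with 4 members each at an unadjusted p under 0.05. The members' median was −0.20, against −0.00 for all genes tested. Estimates were negative for 7 members and positive for 3.

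The 4 members with an unadjusted p under 0.05 were Sncg (−0.27 ± 0.08), Pou4f2 (−0.37 ± 0.13), Rbpms (−0.24 ± 0.09) and Pou4f1 (−0.23 ± 0.09; all SE). Their edgeR adjusted p-values were between 0.124 and 0.182. For Rbpms, Pou4f1 and Sncg every MSC-EVs-treated library lay below every NS-treated library, a pattern found in either direction for 26.3% of all genes. Pou4f3 (−0.23 ± 0.22) and Thy1 (−0.17 ± 0.08) had estimates on the same side with overlapping libraries. The estimates were −0.01 ± 0.08 for Nefl, 0.03 ± 0.08 for Nefm, 0.11 ± 0.19 for Nefh and 0.09 ± 0.10 for Slc17a6 (SE). For Nefl, the 95% interval of the fold ran from 0.878 to 1.12. For Nefh it ran from 0.779 to 1.49, because MSC-EVs replicates 2 and 3 stood at 137 and 221 CPM.

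When only the libraries without Y-linked expression were used, MSC-EVs replicate 3 against the 3 NS-treated libraries, the members' median was 0.04 and again 0 were called. Pou4f3 was then at 0.15 and Nefl at 0.11, both on the positive side. Rbpms (−0.20, edgeR adjusted p = 0.455), Pou4f1 (−0.19) and Pou4f2 (−0.27) kept negative estimates. The members' median thus was −0.20 with the 2 libraries that express Y-linked genes and 0.04 without them. No NS-treated library expresses these genes, so in those 2 libraries treatment and Y-linked status cannot be told apart. The median of 0.04 rests on MSC-EVs replicate 3 alone, the deepest library and the highest of its group for 9 of 10 members. Y-linked status and the other traits of that library cannot be told apart either.

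The third comparison, MSC-EVs-treated rd10 against WT, shares libraries with both others and gives the level reached after treatment. Of the 10 genes, 4 were higher than in WT: Slc17a6, Rbpms, Nefm and Pou4f1. By edgeR with all libraries 0 were lower. Across all 14623 genes tested 55.5% were called, 28.3% higher and 27.2% lower, and 12.2% were called with at least a 2-fold change, which no member reached. Slc17a6 was 0.57 ± 0.17 (SE) higher (edgeR adjusted p = 0.026), Rbpms 0.40 ± 0.09 (edgeR adjusted p = 0.0037), Nefm 0.34 ± 0.10 (edgeR adjusted p = 0.016) and Pou4f1 0.31 ± 0.10 (edgeR adjusted p = 0.020). The libraries of these 4 genes did not overlap with WT, as for 65.2% of all genes. Sncg (−0.01 ± 0.09), Pou4f2 (0.03 ± 0.14), Thy1 (0.11 ± 0.07) and Nefl (0.11 ± 0.11) were within the error of the WT level. The call of Slc17a6 was lost when WT replicate 2 or any MSC-EVs replicate was left out (edgeR adjusted p from 0.059 to 0.103), that of Nefm without WT replicate 2 (0.056) and that of Pou4f1 without WT replicate 3 (0.071). With MSC-EVs replicate 3 alone, the genes called were Rbpms (0.44), Pou4f1 (0.35), Thy1 (0.23) and Nefh (0.23, edgeR adjusted p = 0.049, against −0.11 with all 3 libraries). Without MSC-EVs replicate 3, Nefh was instead called lower (−0.31, edgeR adjusted p = 0.030), so its direction against WT turned on that library. On the amacrine scale only Rbpms stayed called (0.24, edgeR adjusted p = 0.043), with Slc17a6 at 0.41 (0.054), Nefm at 0.18 (0.105) and Pou4f1 at 0.16 (0.210).

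**Figure D3:**
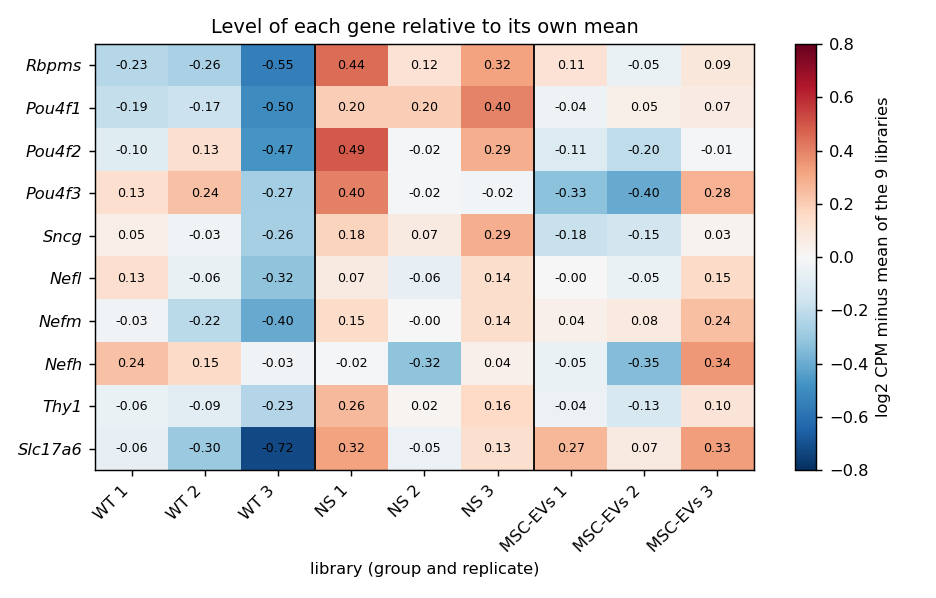
Log2 CPM of each gene (rows) in each library (columns) minus the gene's mean over the 9 libraries, printed in each cell. WT replicate 3 is below the other WT libraries in all 10 rows, and MSC-EVs replicate 3 is the highest of its group in 9.

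The members moved together between replicates of a group. WT replicate 3 was the lowest WT library for 10 of 10 members, whereas it was the lowest for 32.5% of all genes. It was also the lowest for 16 of the 18 further ganglion cell genes, against 7 of 13 amacrine genes and 4 of 12 bipolar genes. NS replicate 2 was the lowest NS library for 9 of 10 members (36.2% of all genes) and for 10 of 13 amacrine genes. MSC-EVs replicate 3 was the highest of its group for 9 of 10 members (35.7% of all genes) and for 16 of the 18 further ganglion cell genes. The summed level of the 10 members ran from 1245 to 1621 CPM in WT, 1498 to 1726 CPM in NS-treated rd10 and 1474 to 1756 CPM in MSC-EVs-treated rd10. These ranges overlap, and Nefl is the largest term of each sum. The pigment epithelium list, a marker of tissue next to the retina, summed to 284, 72.5 and 194 CPM with NS and to 90.0, 77.4 and 206 CPM with MSC-EVs. NS replicate 2 was thus the lowest and MSC-EVs replicate 3 the highest of its group for this list as well. In WT it summed to 45.3, 80.1 and 76.7 CPM, with replicate 1 lowest. Its part in the members' pattern was not tested.

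Likeness between members was measured as the root mean square difference of their centred log2 CPM over the 9 libraries. Sncg and Thy1 were the closest pair (0.085), followed by Nefl and Nefm (0.102), whose counts can share reads. Next came Nefl and Thy1 (0.104), and then Rbpms and Pou4f1 (0.114). Rbpms and Nefh were the farthest apart (0.381). Among 13814 genes outside the set with a mean of at least 1 CPM, those nearest to Rbpms were Myadm (0.078), Crim1, Nuak2, Igdcc4 and Plxnc1 (0.091). Nearest to the mean profile of the members were Cmtm8 (0.054), Rbpms2 (0.056), B230217C12Rik, Elmo1 and Bend6 (0.061). Rbpms2, the paralog of Rbpms, is itself a ganglion cell marker. It rose by 0.27 ± 0.09 (SE) in NS-treated rd10 against WT (edgeR adjusted p = 0.017).

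Ratios within a library do not depend on library scaling. The ratios were chosen after the values were seen, and 18 exact permutation tests were run (6 ratios in 3 comparisons, two-sided), in which 3 against 3 libraries cannot give a p below 0.1. The ratio of Nefh to Nefm in FPKM was 0.944, 1.02 and 1.02 in WT, 0.703, 0.629 and 0.735 in NS-treated rd10 and 0.736, 0.585 and 0.845 in MSC-EVs-treated rd10. WT lay above both rd10 groups without overlap (exact p = 0.1, adjusted 0.2, each), and the rd10 groups overlapped (exact p = 0.8). Thus the heavy subunit was lower relative to the medium subunit in both rd10 groups, with the limit on Nefm reads given above. The ratio of Nefh to Nefl, with means of 0.244 ± 0.016 in WT and 0.191 ± 0.012 in NS-treated rd10 (SD, n = 3), also did not overlap (exact p = 0.1). The ratio of Slc17a6 to Rbpms was 0.908, 0.796 and 0.745 in WT. NS-treated rd10 gave 0.765, 0.744 and 0.731, overlapping with WT. In MSC-EVs-treated rd10 it was 0.924, 0.874 and 0.977, above all NS-treated libraries (exact p = 0.1, adjusted 0.2).

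**Figure D4:**
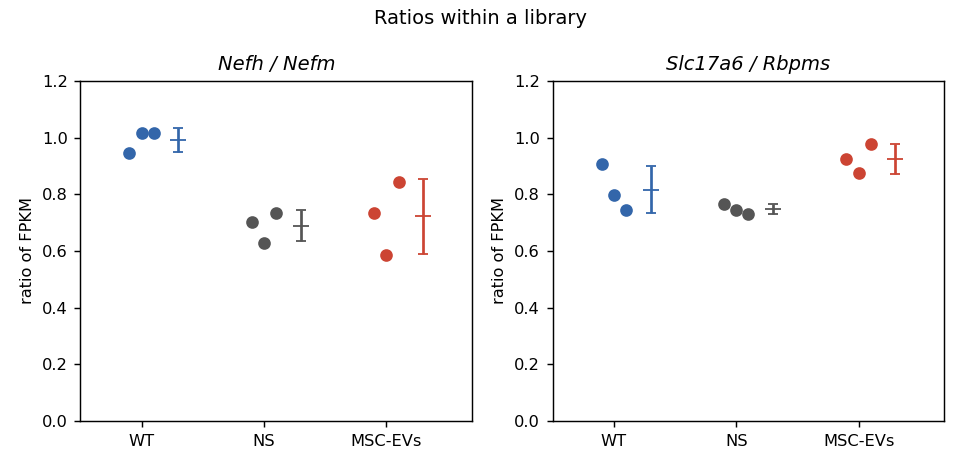
Ratio of FPKM within each library (y axis, from 0) for Nefh to Nefm and Slc17a6 to Rbpms. Points are libraries in the order of their replicate numbers and bars the mean ± SD of 3. Nefh to Nefm is at or above 0.944 in WT and at or below 0.845 in rd10.

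Further genes linked to ganglion cells were read from lists chosen for this report. These genes are not limited to ganglion cells. Isl1 is also in the bipolar list, and Onecut1 and Onecut2 are also in the horizontal cell list. For all list counts below, 31.2% of all genes were called higher and 30.1% lower in NS-treated rd10 against WT. In MSC-EVs-treated rd10 against WT these shares were 28.3% and 27.2%. Of 18 further ganglion cell genes, 14 rose and 0 fell in NS-treated rd10 against WT, with a median log2 fold change of 0.33. The largest rise was that of Prph, which encodes peripherin, an intermediate filament protein linked to axon injury. Prph went from 4.26, 4.79 and 3.55 CPM in WT to 14.3, 25.2 and 13.6 CPM in NS-treated rd10 (2.06 on the log2 scale, edgeR adjusted p = 0.00018), and was at 17.9, 22.5 and 16.2 CPM in MSC-EVs-treated rd10. All rd10 libraries stood well above WT, and the rd10 groups overlapped. The smallest rise among those called was that of Ina, the internexin that co-assembles with neurofilaments (0.25, edgeR adjusted p = 0.0073). On the amacrine scale 3 of the 18 genes were higher and 3 lower. In MSC-EVs-treated rd10 against WT 9 of the 18 were higher, led by Prph (2.16), and 12 of the 18 with MSC-EVs replicate 3 alone.

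Genes of ganglion cell subtypes were more divided. Of 18 genes, 9 rose and 3 fell in NS-treated rd10 against WT, and on the amacrine scale 3 rose and 4 fell (median −0.09). Spp1 (osteopontin), which marks alpha ganglion cells but is also made by activated microglia, rose by 2.44 (edgeR adjusted p = 6.5e-05), from 15.5 to 19.2 CPM in WT to 72.9 to 118 CPM. The 10 genes of the microglia list rose too, from a sum of 40.1 to 43.9 CPM to 309 to 388 CPM, and the part of these cells in the Spp1 value was not tested. Of 10 development factors tested, 5 rose and 2 fell, and on the amacrine scale 3 rose and 2 fell. Onecut2 (0.77, edgeR adjusted p = 8.1e-05), which horizontal cells also express, rose the most, and Myt1 (−0.60, edgeR adjusted p = 3.3e-06) fell the most. In MSC-EVs-treated rd10 against WT, 6 subtype genes rose and 1 fell, and 6 of 9 development factors rose and 2 fell, with Onecut2 at 1.18.

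Axonal genes were followed apart from the neurofilaments. Of 14 genes of the axon cytoskeleton and initial segment, 8 rose and 2 fell in NS-treated rd10 against WT (median 0.27). With upper-quartile factors 11 rose and 2 fell, and on the amacrine scale 2 rose and 2 fell (median −0.02). Cntn2, an axonal adhesion molecule, rose by 0.62 (edgeR adjusted p = 0.0012), and Map1b, a microtubule-associated protein, fell by 0.42 on the log2 scale (edgeR adjusted p = 0.0055). In MSC-EVs-treated rd10 against WT 10 of the 14 rose and 1 fell, with a median of 0.47. Kcna1, a juxtaparanodal potassium channel, was then 1.07 higher (edgeR adjusted p = 4.4e-05), at 33.6, 29.9 and 30.6 CPM against 16.5, 16.1 and 12.3 CPM in WT. Between the rd10 groups 0 of the 14 were called, and the median was 0.16. DESeq2 called 3 of the 14 in that comparison, 2 higher and 1 lower, and on the amacrine scale 4 were higher and 0 lower. Over all 14765 genes tested, 641 were higher and 306 lower with DESeq2, and 1205 and 23 on the amacrine scale.

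Of 12 genes of the axon injury response, 5 rose and 1 fell in NS-treated rd10 against WT. Sprr1a, a growth-associated gene of injured neurons, had 0 counts in all WT libraries and 22, 24 and 10 counts in NS-treated rd10. Its mean CPM in NS-treated rd10 was 5.67-fold the level that 3 counts per WT library would give. The largest fall was that of Ddit4, an inhibitor of mTOR signalling (−0.49, edgeR adjusted p = 0.00039). Atf3, a transcription factor induced in damaged ganglion cells and in other cells, was 2.04 higher in MSC-EVs-treated rd10 than in WT (edgeR adjusted p = 8.1e-05), at 21.3, 35.9 and 25.5 CPM against 7.13, 6.85 and 6.21 CPM. In NS-treated rd10 it was at 15.4, 18.0 and 15.1 CPM (1.26 against WT, edgeR adjusted p = 1.9e-06), and the difference of 0.77 between the rd10 groups was not called (edgeR adjusted p = 0.085). Among the 5 vesicular transporters, Slc17a7 (VGLUT1, used by photoreceptors and bipolar cells) fell by 1.21 on the log2 scale (edgeR adjusted p = 1.5e-08), and Slc32a1 (the GABA and glycine transporter) rose by 0.28 (edgeR adjusted p = 0.0013). Slc17a6 and Slc17a7 thus had estimates of opposite sign.

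Between the rd10 groups, 3 genes of these lists were called, where edgeR called 1.16% of all 14765 genes tested. Syt2, a synaptic calcium sensor, was 0.37 higher with MSC-EVs (edgeR adjusted p = 0.034), at 80.8, 84.5 and 85.6 CPM against 65.7, 63.4 and 65.3 CPM with NS. Kcng4, a potassium channel subunit of alpha ganglion cells, was 0.59 higher (edgeR adjusted p = 0.026). Sncb, which encodes beta-synuclein, fell by 0.29 on the log2 scale with MSC-EVs (edgeR adjusted p = 0.046), after a rise of 0.23 in NS-treated rd10 against WT (edgeR adjusted p = 0.0039). These calls depended on single libraries. If NS replicate 3 or MSC-EVs replicate 1 was left out, 0 of all genes tested passed the edgeR threshold. Limma on FPKM called none of the 3, and over all alternatives that leave out 1 library their edgeR adjusted p reached 0.176, 0.162 and 0.210. In the libraries without Y-linked expression, 0 of the 18 further ganglion cell genes, 1 of the 18 subtype genes and 0 of the 2 other synucleins were called. There the median was 0.01 for the further ganglion cell genes, −0.11 for the subtype genes, 0.20 for the axonal genes (0 called) and −0.25 for the injury genes (1 higher). Against WT, MSC-EVs replicate 3 alone gave 5 higher and 2 lower subtype genes, 5 higher and 2 lower of 10 development factors, 9 higher and 0 lower axonal genes, and 3 higher and 1 lower injury genes.

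Markers of other cells that share the inner retina moved in the same direction as the members in NS-treated rd10. Of 13 amacrine genes 10 rose and 0 fell, with a median of 0.28, close to the 0.29 of the 10 members. Of 6 horizontal cell genes 4 rose (median 0.30), and of 12 bipolar genes 6 rose and 2 fell (median 0.19). On the amacrine scale 1 horizontal cell gene rose and 1 fell, and 1 bipolar gene rose and 5 fell (median −0.10). The summed amacrine level was 1925 to 1987 CPM in WT, 2348 to 2595 CPM in NS-treated rd10 and 2146 to 2364 CPM in MSC-EVs-treated rd10. The groups did not overlap between WT and either rd10 group. In MSC-EVs against NS edgeR called 0 of the 13 amacrine genes, with a median of −0.21 beside the −0.20 of the members, and DESeq2 called 2, both lower. Without the Y-linked libraries these medians were −0.06 and 0.04. In MSC-EVs against NS with all libraries, edgeR called 2 of 12 bipolar and 1 of 10 Müller glia genes lower, with 0 higher in each. Cone genes were split, with 3 higher and 3 lower of 10 in NS-treated rd10. Markers of glia and vessels rose (8 of 10 Müller glia, 4 of 5 astrocyte and 9 of 10 endothelium and pericyte genes, with 0 lower in each), and 0 of 8 lens genes were called. Of 9 pigment epithelium genes 3 rose and 0 fell, with a median of 1.33, above that of the members. The oligodendrocyte list, which would mark optic nerve tissue at the ganglion cell axons, summed to 70.0 to 72.0 CPM in WT, 101 to 110 CPM in NS-treated rd10 and 91.2 to 115 CPM in MSC-EVs-treated rd10. The part that the loss of rod transcripts plays in these shared values was not tested.

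**Figure D5:**
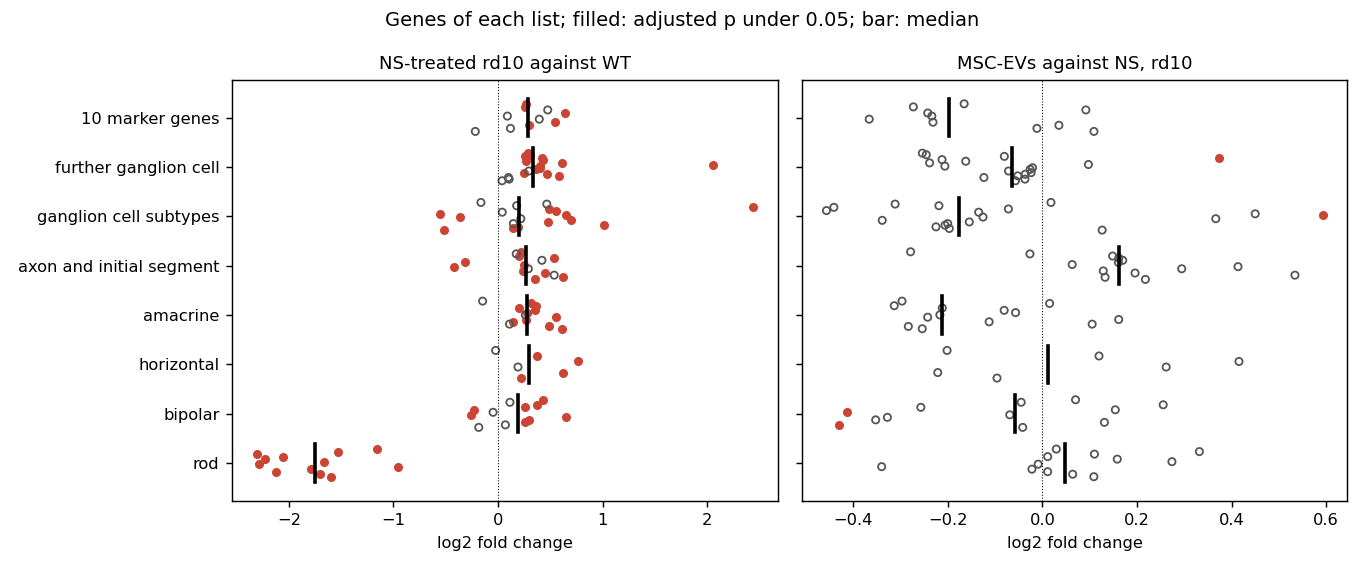
Log2 fold change (x axis, a different range in each panel) of each gene in 8 lists for NS-treated rd10 against WT and MSC-EVs against NS. Filled points passed an edgeR adjusted p under 0.05 and the black bar is the median: 0.29 for the 10 marker genes, 0.28 for amacrine and −1.75 for rod genes in the first panel.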

How the data were processed

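Oligo(dT)-enriched RNA of mouse retina (9 libraries, 3 per group) was sequenced by the authors, who deposited 1 table of estimated counts and FPKM for 22337 genes. The submitters' processing notes name fastp, Bowtie2, HISAT2, StringTie 1.3.1 and RSEM; their roles, the genome build and the strandedness are not given in the sources used here. Between 9.16% and 11.7% of the genes of a library had estimated counts with decimals, and the deposited counts were rounded. Each comparison was fitted over all genes on its 6 libraries with edgeR 4.0.16 (R 4.3.3; filterByExpr, TMM, robust quasi-likelihood test, Benjamini-Hochberg over all genes tested, threshold 0.05). SE and 95% intervals come from that fit. CPM used TMM factors over all 9 libraries; FPKM are the authors' and serve levels between genes. In simulated counts where few genes changed, the fits recovered most of the largest planted changes. Recovery of changes as small as those of the members, or with most genes changed, is not given here.

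The members were given by name, but they and the lists were chosen with earlier results of these data known. Named genes are the members, the called genes with the largest and smallest change in each list, Pde6b, and the 5 genes nearest in profile; the Y-linked genes were named after their values were seen. For 1 gene of a list no value is given. Replicates were grouped by the labels. Alternatives were DESeq2 1.42.0 and its size factors, upper-quartile factors, scaling to the amacrine list, the rod and cone lists left out, 2 other filters (none, or 10 counts or more per library), 1 fit of all 9 libraries, a replicate block, limma 3.58.1 on log2(FPKM + 1) and log2(FPKM + 0.1), and each library left out. The Nefl and Nefm sum and the fit without Y-linked libraries were added after seeing the data. Precision is limited by 3 libraries per group, with a common biological coefficient of variation of 7.97% (NS against WT), 12.4% (MSC-EVs against NS) and 10.8% (MSC-EVs against WT).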

Additional observations from a re-analysis of the deposited data

How the results depend on the processing

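The number of members called in NS-treated rd10 against WT was 5 with edgeR, 7 with DESeq2 (6 higher, 1 lower), 3 on the amacrine scale (2 higher, 1 lower), 8 with limma on log2(FPKM + 1) and 8 on log2(FPKM + 0.1), and 4 to 7 with 1 library left out. The lower call was Nefh, also without WT replicate 3 (−0.29). Over all 14644 genes tested, 4562 were higher and 4410 lower with edgeR, and 4276 and 4132 with DESeq2. On the amacrine scale 2285 were higher and 7420 lower. With limma 6051 were higher and 2377 lower on log2(FPKM + 1), and 6065 and 2399 on log2(FPKM + 0.1). On the amacrine scale Sncg (−0.037), Thy1 (−0.020) and the uncalled Nefl (−0.17) and Pou4f3 (−0.20) changed sign. In MSC-EVs-treated rd10 against WT the number of members called was 4, and 1 on the amacrine scale. With 1 library left out it was 2 to 4, the lowest without WT replicate 2. Over all 14623 genes tested, 4137 were higher and 3980 lower with edgeR, and 2777 and 5949 on the amacrine scale. Nefh in that comparison turned from −0.11 to 0.23 in the libraries without Y-linked expression, and was −0.31 and called lower without MSC-EVs replicate 3. In MSC-EVs against NS 0 members were called under every alternative run. Over all genes, MSC-EVs against NS gave 172 calls with edgeR, 947 with DESeq2, 1026 with all 9 libraries in 1 fit, 1228 on the amacrine scale, 94 with each limma fit, 295 without the Y-linked libraries, and 0 to 676 with 1 library left out (0 without NS replicate 3 or MSC-EVs replicate 1, 32 without NS replicate 2, 676 without MSC-EVs replicate 2). The share of higher calls over all genes in MSC-EVs-treated rd10 against WT was 51.0% with edgeR, 31.8% on the amacrine scale and 71.4% with limma; between the rd10 groups it was 78.5% with edgeR and 98.1% on the amacrine scale. The causes of these differences were not tested.

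The main fits did not pair the samples by replicate number. Correlations of same-numbered libraries were 0.089, 0.197 and 0.284 in MSC-EVs against NS, where each library correlated best with its own number. Differently numbered libraries correlated at −0.222 to −0.002 there. In the other comparisons same-numbered libraries correlated at −0.074 to 0.073. Whether equal numbers mark paired samples was not tested further. With a replicate block, 403 genes were called in MSC-EVs against NS, where the main fit called 172, and 0 members were called. Slc17a6 then passed in NS-treated rd10 against WT (0.49, edgeR adjusted p = 0.0046).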
